A study of Mus musculus with 32 samples.

Results

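Semaphorins, the plexins that bind them and the neuropilins that help some of them bind form 1 family of guidance ligands and receptors, and 31 of its genes were followed here through mouse embryonic stem cells (ESC) and neural cells made from them. The members were all protein-coding genes whose symbol begins with Sema and a digit or with Plxna, Plxnb, Plxnc or Plxnd, together with Nrp1 and Nrp2. They numbered 31 of 55573 genes in the tables, with 20 semaphorins, 9 plexins and 2 neuropilins. All 31 passed the filter on low counts in every comparison.

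The study sequenced total RNA from cells of strain 129S5/SvEvBrd with the genotype Smarce1-MD or Smarce1-MD(R42A), called MD and R42A here. Smarce1 encodes BAF57, a subunit of SWI/SNF chromatin remodelling complexes. The labels do not spell out MD. From general knowledge it is read as the mitotic degron, a part of cyclin B1 that has a tagged protein destroyed when cells leave mitosis, with R42A as its inactive form.

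MD neural cells came from the clones 09 and 30, and R42A neural cells from A04 and A10, each with 2 libraries after 6 days in neural medium, which the labels write both as RHA-B and as RHB-A. MD ESC came from the clones 09, 30, 45 and 47, and R42A ESC from the clones A04, A10, A01 and A02, each with 3 libraries and grown with serum and LIF on gelatin. All cells carry the tag in one of its forms, so no comparison is with untagged cells, and each line is 1 clone. The libraries of a clone were summed and the clone was taken as the replicate. Runs of library numbers split the ESC into a first series (09, 30, A04, A10) and a second series (45, 47, A01, A02). All neural libraries form a run of their own, and a change of stage therefore cannot be told apart from a change of run.

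Class 3 semaphorins are secreted, while classes 4 to 6 cross the membrane and Sema7a is held by a lipid anchor. Plexins carry the signal into the cell through a GTPase-activating domain that acts on small GTPases of the Ras family, and most class 3 ligands also need a neuropilin to bind. In the developing nervous system these signals steer axons, migrating neurons and neural crest cells, and in vessels neuropilins also serve as co-receptors of VEGF.

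Libraries held between 38699952 and 96424443 counts. The summed level of 7 ESC markers was 43.6 to 51.7 CPM (counts scaled to library size) in MD neural cells and 41.2 to 45.4 CPM in R42A neural cells, against 4506 to 5246 CPM in MD ESC and 5355 to 6487 CPM in R42A ESC. Smarce1 RNA averaged 296 ± 6.27 CPM in MD neural cells and 233 ± 1.53 CPM in R42A neural cells (SD, n = 2 clones each), and 116 ± 5.74 CPM in MD ESC and 109 ± 14.9 CPM in R42A ESC (SD, n = 4 clones each). A tag that acts on the protein would not be checked by these RNA levels. These are bulk samples, in which fewer cells of a type and less RNA per cell cannot be told apart.

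Per kb of exon, the receptor Plxna1 had the highest level of all members in each of the 4 groups. Its level was 31.6 ± 0.706 CPM per kb in MD neural cells and 39.4 ± 0.279 in R42A neural cells (SD, n = 2 clones each), and 15.1 ± 4.28 in MD ESC and 17.1 ± 5.17 in R42A ESC (SD, n = 4 clones each). Among the ligands, Sema5b led in MD neural cells at 18.6 ± 0.908 CPM per kb and Sema4c in R42A neural cells at 18.4 ± 0.583. Sema4b led in both kinds of ESC, at 9.52 ± 1.69 CPM per kb in MD and 9.51 ± 2.18 in R42A. Sema4c in MD neural cells, at 18.2 ± 0.419, lay within the spread of Sema5b. The summed level of the 20 semaphorins was 84.9 CPM per kb in MD neural cells and 75 in R42A neural cells, and 35.9 in MD ESC and 36.1 in R42A ESC. That of the 9 plexins was 96.4 in MD neural cells and 106 in R42A neural cells, and 31.9 in MD ESC and 36.9 in R42A ESC. In the GENCODE M21 annotation, 10.7% of the Plxna1 exon length and 7.27% of that of Sema4c lie opposite exons of another gene, and since the strand setting of the counting is not given, reads of the partners cannot be told apart there.

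**Figure D1:**
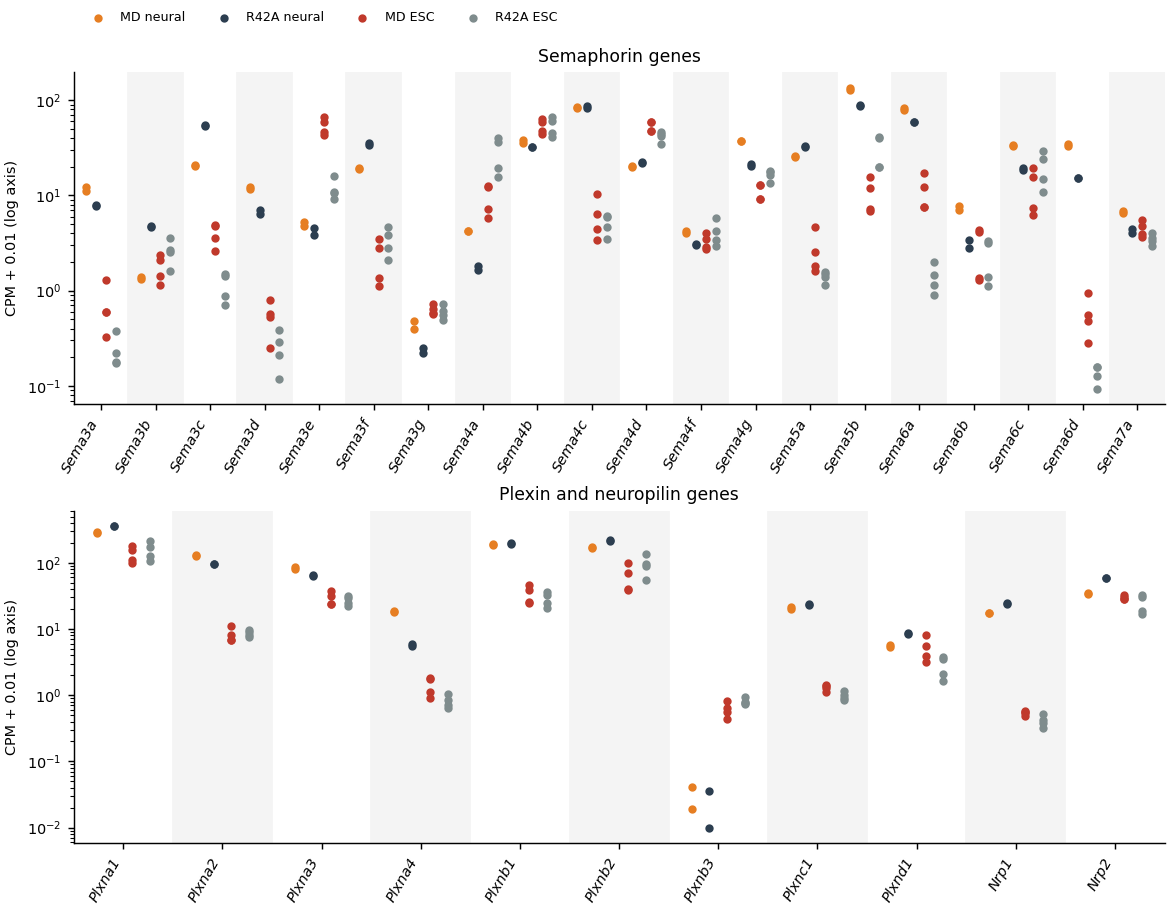
Level of each member in each clone (CPM plus 0.01, log axis), with semaphorins above and plexins with neuropilins below, and 1 point per clone for MD neural cells, R42A neural cells, MD ESC and R42A ESC. Plxna1 lies at 282 and 291 CPM in MD neural cells and at 359 and 355 CPM in R42A neural cells, while Plxnb3 in neural cells lies at the bottom of its panel.

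Promoter sequences are shown for 4 semaphorins whose RNA differed between MD and R42A ESC: Sema3e, which binds Plxnd1 without a neuropilin and patterns vessels, Sema6d, a membrane ligand of Plxna1, Sema4a, a membrane ligand known from T cells and the retina, and Sema6c, a membrane semaphorin of class 6. Sema3e and Sema6d were higher in MD ESC, and Sema4a and Sema6c were lower there. For Sema6c the clones of the genotypes overlapped, and its call did not hold in every alternative. They were chosen after their values were seen, among starts whose window lies wholly before the annotated gene. Each sequence holds the 250 bases before a RefSeq start in build GRCm38.p6, and capitals mark the GC box GGGCGG on either strand (CCGCCC on the printed strand where the match is on the other).
Sema3e, chr5:14025026-14025275, plus strand: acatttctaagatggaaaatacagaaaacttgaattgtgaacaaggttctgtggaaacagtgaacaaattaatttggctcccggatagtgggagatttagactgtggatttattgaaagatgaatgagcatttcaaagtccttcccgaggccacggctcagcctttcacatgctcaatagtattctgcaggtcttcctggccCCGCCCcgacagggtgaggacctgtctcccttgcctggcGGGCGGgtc
Sema6d, chr2:124089719-124089968, plus strand: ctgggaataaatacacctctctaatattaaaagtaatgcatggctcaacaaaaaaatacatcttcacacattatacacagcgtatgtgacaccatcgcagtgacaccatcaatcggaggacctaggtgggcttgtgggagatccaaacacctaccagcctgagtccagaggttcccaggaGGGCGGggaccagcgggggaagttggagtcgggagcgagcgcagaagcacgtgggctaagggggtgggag
Sema4a, chr3:88461183-88461432, minus strand: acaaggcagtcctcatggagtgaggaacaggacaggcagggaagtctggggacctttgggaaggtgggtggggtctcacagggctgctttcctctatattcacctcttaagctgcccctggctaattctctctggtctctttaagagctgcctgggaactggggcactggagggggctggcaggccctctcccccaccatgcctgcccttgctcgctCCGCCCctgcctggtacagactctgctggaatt
Sema6c, chr3:95160170-95160419, plus strand: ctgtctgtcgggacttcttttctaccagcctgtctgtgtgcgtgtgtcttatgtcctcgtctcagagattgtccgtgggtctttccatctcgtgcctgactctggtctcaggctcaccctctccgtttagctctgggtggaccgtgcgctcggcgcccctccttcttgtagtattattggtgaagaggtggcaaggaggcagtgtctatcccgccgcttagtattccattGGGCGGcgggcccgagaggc
Of the members, 26 had a RefSeq promoter entry, with 37 starts in all. GGGCGG was found on either strand at 73% of these starts, against 32.7% of the 32851 starts of all genes. The E-boxes CAGCTG, which reads alike on both strands, and CAGATG were found at 16.2% and 5.41% of the member starts, against 13% and 14.4% of all starts, and the median number of CpG pairs per window was 13, against 6 for all starts. Neither E-box is in the 4 windows shown. In these windows GC boxes stand before 2 genes that were higher in MD ESC and before 2 that were lower, with 2 matches in Sema3e and 1 in each of the other windows. Other starts of these genes, not shown, differ. Sema6c has a start with CAGCTG and no GC box, Sema4a a start with CAGATG and no GC box, and Sema6d a start with none of these motifs. The remaining Sema4a starts hold GC boxes and no E-box.

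In ESC, 15 of 31 members differed between MD and R42A clones, 8 of them higher and 7 lower. The largest changes were in ligands: Sema6a, Sema3e, Sema6d, Sema3c and Sema3a were higher in MD by 3.02-fold or more, and Sema4a and Sema5b were lower by 2.88-fold and 2.86-fold. Of all 21567 genes tested, 36.5% were called, 17.1% higher and 19.4% lower. Members are called at an adjusted p under 0.05 in the edgeR quasi-likelihood test with library series as a term. By role, 13 of 20 semaphorins and 2 of 9 plexins were called and neither neuropilin passed, and the median log2 change of the 31 was 0.22, against -0.035 over all genes.

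Sema6a, a membrane ligand of Plxna2 and Plxna4, had 12.2, 7.51, 17.4 and 7.57 CPM in MD clones 09, 30, 45 and 47, against 1.13, 2, 0.899 and 1.44 CPM in R42A clones A04, A10, A01 and A02. Every MD clone lay above every R42A clone, with 45 the highest. The change was 3.02 ± 0.36 on the log2 scale (SE, n = 4 clones each, adjusted p = 0.000367 in edgeR), or 8.13-fold.

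Sema3e had 66.3, 58.9, 43.1 and 46.7 CPM in the MD clones in the same order, against 16.1, 10.9, 10.5 and 9.22 CPM in the R42A clones. The groups did not overlap, and in each genotype the clones of the first series were the higher ones. The log2 change was 2.20 ± 0.12 (SE, adjusted p = 1.68e-05 in edgeR). Its plexin, Plxnd1, had 3.93, 3.11, 8.19 and 5.53 CPM in the MD clones and 1.61, 3.49, 2.07 and 3.79 CPM in the R42A clones. These groups overlapped, since MD clone 30 lay below R42A clones A10 and A02, and the log2 change of 0.84 ± 0.31 did not pass the test (adjusted p = 0.061 in edgeR).

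Sema3c, a secreted ligand that guides neural crest cells into the outflow tract of the heart, had 4.87, 3.53, 4.74 and 2.57 CPM in MD clones and 1.42, 1.48, 0.693 and 0.871 CPM in R42A clones. No MD clone reached down to an R42A clone. Its log2 change was 1.87 ± 0.24 (SE, adjusted p = 0.000567 in edgeR). Sema6d was far lower in level, at 0.546, 0.466, 0.929 and 0.269 CPM in MD clones, from 36 to 134 counts, and at 0.149, 0.149, 0.0824 and 0.116 CPM in R42A clones, from 12 to 35 counts. These groups also stood apart, with a log2 change of 2.14 ± 0.39 (SE, adjusted p = 0.00327 in edgeR).

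Sema3a, which collapses growth cones through Nrp1 and plexins of class A, had 0.583, 0.593, 1.29 and 0.314 CPM in MD clones, against 0.364, 0.162, 0.213 and 0.170 CPM in R42A clones. MD clone 47 lay below R42A clone A04, so the groups overlapped. The log2 change was 1.59 ± 0.45 (SE, adjusted p = 0.0233 in edgeR). Without R42A clone A01 it was 1.55 (adjusted p = 0.065 in edgeR), and without A02 it was 1.45 (adjusted p = 0.0815 in edgeR), and neither passed.

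Sema4a was lower in MD ESC, at 7.2, 5.78, 12.3 and 12.5 CPM, against 19.2, 15.5, 40.3 and 36.2 CPM in R42A ESC. All MD clones lay below all R42A clones, and in both genotypes the second series was higher. The log2 change was -1.53 ± 0.11 (SE, adjusted p = 4.17e-05 in edgeR). Sema5b, a membrane ligand with thrombospondin repeats that repels retinal neurites through Plxna1 and Plxna3, had 7.21, 6.94, 15.6 and 12.1 CPM in MD ESC and 19.7, 20, 40.7 and 39.9 CPM in R42A ESC. It showed the same order of groups and series, with a log2 change of -1.52 ± 0.09 (SE, adjusted p = 2.33e-05 in edgeR).

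The other 8 members called had smaller changes. Sema5a, at 0.89, Plxna4, a receptor of Sema3a and Sema6a, at 0.81, and Sema4d, the ligand of Plxnb1, at 0.34 were higher in MD. Sema6c at -0.76, Sema3f at -0.72, Plxnb2 at -0.66, Sema4g at -0.60 and Sema3b at -0.59 were lower, all on the log2 scale. Among the 16 members that did not pass, log2 changes ran from -0.43 for Plxnb3 to 1.15 for Sema3d, and both neuropilins stood at 0.41 (Nrp1) and 0.27 (Nrp2). Nrp1 lies on chromosome 8, whose genes had a median log2 change of -0.45 in ESC, and with each chromosome scaled separately its change was 0.87 (adjusted p = 0.00855 in edgeR). With that scaling 12 members were higher and 6 lower.

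The calls of Sema3c, Sema3e, Sema4a, Sema5b, Sema6a and Sema6d held in each of 18 alternatives. Of the smaller changes, Sema3b lost its call on leaving out 09, 30, 47, A02 or A10, Plxnb2 on leaving out the same clones, Sema5a on leaving out 09, 45, A01, A02 or A04, and Plxna4 on leaving out 09, 45, A01 or A02. The log2 change then ran from -0.63 to -0.37 for Sema3b, from -0.63 to -0.42 for Plxnb2, from 0.51 to 0.85 for Sema5a and from 0.54 to 0.81 for Plxna4. Sema3f, Sema4d, Sema4g and Sema6c lost their calls without the series term and in the first series alone, and Sema3f also in the second series alone. Sema3b, Plxnb2, Sema5a and Plxna4 likewise lost their calls without the series term and in each series alone. In the first series alone 6 members were called and in the second alone 10, each with 2 clones against 2, where 7.84% and 23.2% of all genes were called. Within the first and the second series the log2 change was 2.697 and 3.43 for Sema6a, 2.26 and 2.20 for Sema3e, 1.80 and 2.61 for Sema6d, 1.58 and 2.24 for Sema3c, -1.38 and -1.61 for Sema4a, and -1.44 and -1.53 for Sema5b, all passing the test. Sema3a, at 1.21 and 2.07, passed in neither (adjusted p = 0.148 and 0.0854 in edgeR).

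**Figure D2:**
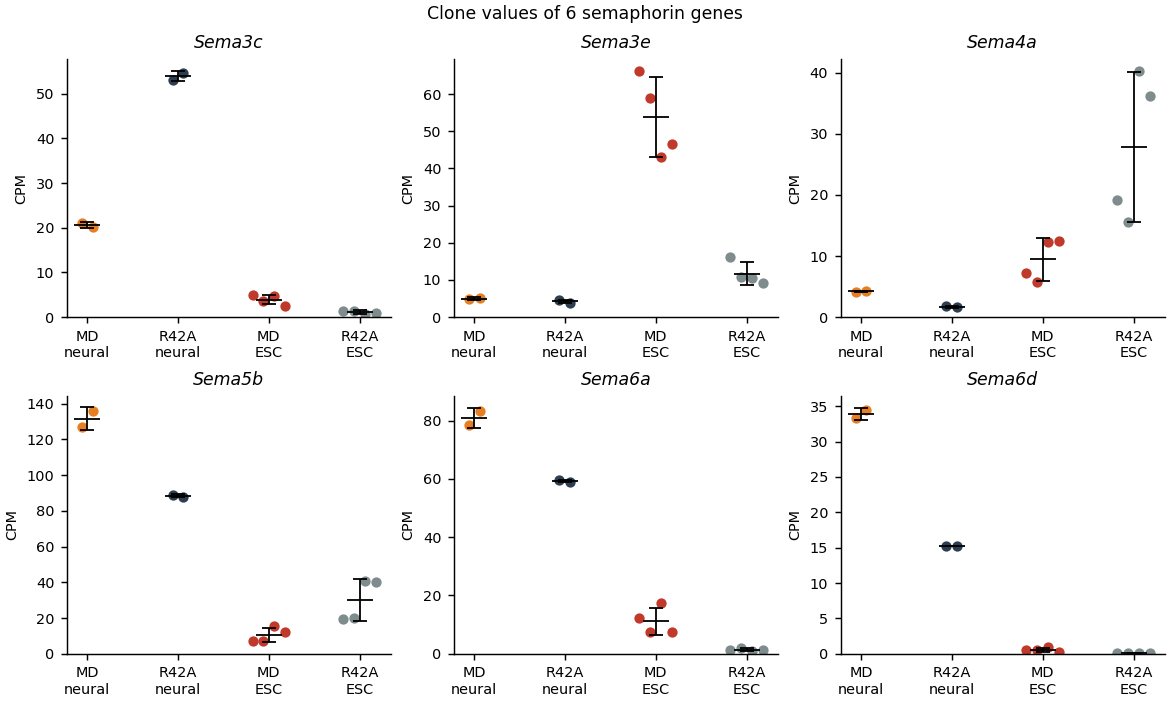
CPM of 6 semaphorins per clone in MD neural cells, R42A neural cells, MD ESC and R42A ESC; points are clones and lines the mean ± SD (n = 2 clones in neural cells, n = 4 in ESC). The 6 were chosen because their ESC call held in every alternative. Sema3c was lower in MD neural cells and higher in MD ESC, and Sema4a and Sema5b the reverse.

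Markers of other cells moved with these comparisons. The summed level of 7 smooth muscle and mesenchyme markers was 64.6 to 114 CPM in MD ESC and 10.1 to 28.8 CPM in R42A ESC, with 5 of 7 higher, and 6 of 7 ESC markers were lower in MD. In neural cells the 8 neuron markers summed to 1845 to 1878 CPM in MD and 701 to 721 CPM in R42A, with 8 of 8 higher. For neural progenitor markers in ESC, the sum ran from 68.2 to 117 CPM over MD clones, against 31.8 to 50.1 CPM over R42A clones, with no overlap. Of the 6 tested, 3 were higher, among them Nes by 1.71 on the log2 scale, and 1 was lower, Sox1 at -1.41. Most of the gap between the sums was Nes, whose mean was 59.3 CPM over MD clones against 18 over R42A clones. Sox1 went the other way, with means of 4.52 and 11.8 CPM in the same order. Neural crest markers summed to 59.7 to 78.3 CPM in MD ESC and 37.3 to 59.4 CPM in R42A ESC (2 higher and 1 lower of 5 tested). Most of that sum was Erbb3, at a mean of 43.7 CPM in MD and 28.8 CPM in R42A, and Foxd3, at 20.5 and 17.1 CPM. Neuron markers summed to 289 to 356 CPM in MD ESC and 325 to 474 CPM in R42A ESC (2 lower of 7 tested), and those of endoderm and glia to at most 24 and 16 CPM in MD ESC and 39.9 and 18.7 CPM in R42A ESC. In neural cells the neural progenitor markers summed to 915 to 918 CPM in MD and 1121 to 1136 CPM in R42A. Of the 7, 1 was called, lower. Nes was the largest part, at a mean of 288 CPM in MD and 597 CPM in R42A, and Sox1 stood at 126 and 174 CPM. Fabp7, at 263 and 143 CPM, and Pax6, at 150 and 111 CPM, had higher means in MD and were not called. Those of smooth muscle and mesenchyme summed to 79.7 to 82.4 CPM in MD and 208 to 218 CPM in R42A. Of these, 4 were higher and 3 lower. Acta2 and Tagln, at means of 83 and 106 CPM in R42A, stood at 3.93 and 3.74 CPM in MD. Col1a1 and Col1a2 went the other way, at 28.7 and 29.8 CPM in MD and 7.04 and 6.76 CPM in R42A. Endoderm markers summed to 93.1 to 102 CPM in MD neural cells and 209 to 217 CPM in R42A neural cells (1 of 6 called, lower). Cubn was the largest part, at a mean of 37.5 CPM in MD and 107 CPM in R42A. Neural crest markers summed to 97.8 to 106 CPM in MD neural cells and 45.3 to 48.4 CPM in R42A neural cells (3 higher and 1 lower of 6). Tfap2b made up most of the crest sum, at a mean of 83.4 CPM in MD and 33.6 CPM in R42A. Glial markers summed to 62.0 to 64.9 CPM in MD neural cells and 73.6 to 74.9 CPM in R42A neural cells (2 of 6 called, both lower). Endothelial markers summed to 9.10 to 9.13 CPM in MD neural cells and 20.7 to 24.1 CPM in R42A neural cells (1 higher and 2 lower of 5 tested). In ESC the endothelial markers summed to 113 to 173 CPM in MD and 73.1 to 127 CPM in R42A (2 higher of 5 tested), with Emcn under 0.1 CPM in each group. Pecam1 made up most of that ESC sum, at a mean of 124 CPM in MD and 80.3 CPM in R42A. Tie1 stood at 0.698 CPM in MD ESC and 0.932 CPM in R42A ESC. A sum that rests on 1 or 2 genes does not show that cells of that type were present. The part of these cells in the changes of semaphorins, plexins and neuropilins was not tested.

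In neural cells, 18 of 31 members were called, 12 higher and 6 lower in MD than in R42A, where 33.7% of 23844 genes were called (17.4% higher, 16.3% lower). The receptor Plxna4 and the ligands Sema4a, Sema6b and Sema6d were at least 2.23-fold higher in MD, while Sema3b and Sema3c were lower by 3.48-fold and 2.61-fold. All 4 plexins of class A changed, 3 higher and 1 lower, and both neuropilins were lower. The 5 plexins of classes B, C and D did not pass the test, whose spread is shared with ESC. When the neural sums were fitted alone, 67.3% of all genes were called, and Plxnb2, Plxnc1 and Plxnd1 passed. So did Sema3a, Sema3e, Sema4b, Sema4d, Sema4f, Sema5a and Sema6a, which did not pass in the shared fit. The median log2 change of the 31 members was 0.38, against -0.002 over all genes.

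Plxna4 had 18.2 and 18.7 CPM in MD neural cells of clones 09 and 30, against 5.98 and 5.55 CPM in R42A neural cells of A04 and A10. Both MD clones were about level and lay above both R42A clones. Its log2 change was 1.67 ± 0.20 (SE, n = 2 clones each, adjusted p = 0.00117 in edgeR). Plxna2 and Plxna3 were also higher, by 0.43 and 0.38 on the log2 scale, and Plxna1 was lower, at -0.32.

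Nrp2, a co-receptor of Sema3b, Sema3c and Sema3f, had 34.3 and 34.6 CPM in MD neural cells and 58.2 and 59.3 CPM in R42A neural cells. Its groups did not overlap, and the log2 change was -0.77 ± 0.22 (SE, n = 2 clones each, adjusted p = 0.0335 in edgeR). Nrp1 was lower in MD by less, at -0.46 ± 0.11 (adjusted p = 0.0171 in edgeR). On chromosome 8, where genes had a median log2 change of -0.28, its value with each chromosome scaled separately was -0.14 (adjusted p = 0.303 in edgeR).

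Of the 7 secreted class 3 ligands, 3 were lower in MD neural cells and 2 higher. Sema3b, secreted and known in human as a candidate tumour suppressor, had 1.33 and 1.38 CPM in MD neural cells and 4.69 and 4.73 CPM in R42A neural cells, for a log2 change of -1.80 ± 0.24 (SE, adjusted p = 0.00176 in edgeR). Sema3c had 21.1 and 20.2 CPM in MD neural cells and 53.1 and 54.7 CPM in R42A neural cells, for a log2 change of -1.39 ± 0.14 (SE, adjusted p = 0.000539 in edgeR). In both genes MD clones lay below R42A clones with wide gaps between them. Sema3f was lower at -0.85, whereas Sema3d at 0.83 and Sema3g at 0.92 were higher, and Sema3a and Sema3e did not pass. Sema3g rested on 62 and 43 counts in MD neural clones and 27 and 25 in R42A neural clones, and was not called with DESeq2.

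Of the 12 membrane semaphorins of classes 4 to 6, 6 were higher in MD neural cells and the other 6 did not pass. Sema4a had 4.18 and 4.24 CPM in MD neural cells and 1.81 and 1.62 CPM in R42A neural cells (log2 change 1.296 ± 0.16, SE, adjusted p = 0.00119 in edgeR). Sema6b, a ligand of Plxna4, had 7.08 and 7.77 CPM in MD neural cells and 3.42 and 2.80 CPM in R42A neural cells (1.25 ± 0.16, adjusted p = 0.00152 in edgeR). In both genes the MD clones lay above the R42A clones. Sema6d had 33.3 and 34.5 CPM in MD neural cells and 15.2 CPM in each R42A clone (1.16 ± 0.09, adjusted p = 0.000218 in edgeR). Sema5b had 127 and 136 CPM in MD neural cells and 89.0 and 88.0 CPM in R42A neural cells (0.57 ± 0.05, adjusted p = 0.000441 in edgeR). Sema7a, a ligand of Plxnc1 and integrin beta 1, had 6.57 and 6.84 CPM in MD neural cells and 4.44 and 4.03 CPM in R42A neural cells (0.66 ± 0.14, adjusted p = 0.0104 in edgeR). Its groups also stood apart. Sema4g at 0.85 and Sema6c at 0.83 were called higher, and Sema6a, at 78.5 and 83.4 CPM in MD neural cells and 59.5 and 59.0 CPM in R42A neural cells, did not pass (0.45 ± 0.27, adjusted p = 0.257 in edgeR).

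Plxnb3 and Plxnd1 had the largest fitted changes of their classes, and neither passed. Plxnb3 had 4 and 1 counts in MD neural clones and 0 and 3 in R42A neural clones, too few for a fold change. Plxnd1 had 5.64 and 5.36 CPM in MD neural cells and 8.68 and 8.34 CPM in R42A neural cells, at -0.63 ± 0.33 on the log2 scale (SE, adjusted p = 0.182 in edgeR). Without clone 09, and likewise without 30, only Plxna4, Sema3c, Sema4a, Sema5b and Sema6d remained of the 18 calls. The adjusted p of the 13 lost calls in edgeR then ran from 0.0548 to 0.252 without 09 and from 0.0644 to 0.249 without 30. Without A10, Sema3g was not called (0.83, adjusted p = 0.059 in edgeR).

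**Figure D3:**
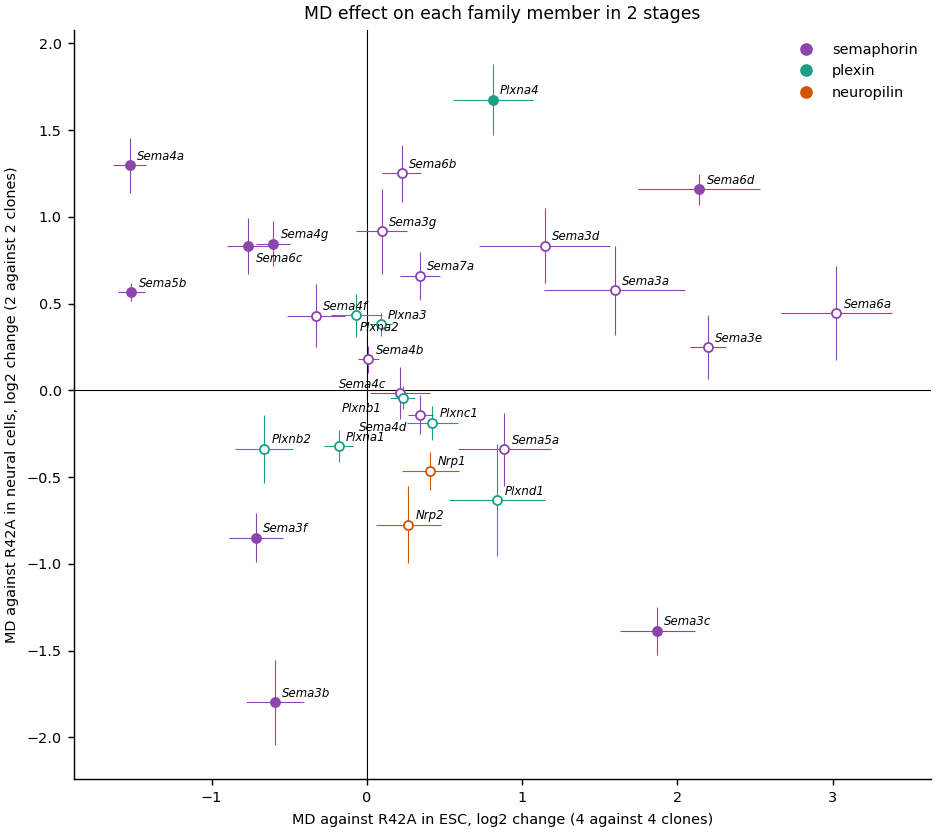
Log2 change of MD against R42A in neural cells (y axis, 2 clones against 2) and in ESC (x axis, 4 against 4) for each member but Plxnb3, whose neural counts give no fold change; lines are standard errors, colours the roles, and filled points are members called in both stages. Sema3c lies at -1.39 in neural cells and 1.87 in ESC and Sema4a at 1.296 and -1.53, in opposite corners.

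Across the stages, 9 members were called in both, 4 in the same direction (Plxna4 and Sema6d higher, Sema3b and Sema3f lower) and 5 in opposite directions. Of the 21470 genes tested in both stages, 16.5% were called in both, 11.9% in the same direction and 4.61% in opposite directions. Sema3c was lower in MD neural cells and higher in MD ESC, and Sema4a, Sema4g, Sema5b and Sema6c were higher in MD neural cells and lower in MD ESC. The 2 comparisons share 4 clone labels. The MD effect stands for the difference of MD from R42A, whatever its cause. Its own difference, that in neural cells less that in ESC of the same 4 clones, passed the test for 14 members, 8 higher and 6 lower, where 22.9% of all genes were called (11.9% higher, 11.1% lower). With DESeq2 size factors the split was 5 higher and 7 lower, and with each chromosome scaled separately 7 higher and 8 lower.

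Sema3c differed by -2.95 ± 0.20 (SE, adjusted p = 0.00039 in edgeR) and Sema5b by 2.03 ± 0.08 (SE, adjusted p = 0.00015 in edgeR), and both held in each of 12 alternatives. Sema4a differed by 2.69 ± 0.22 (adjusted p = 0.000625 in edgeR), Sema6c by 1.74 ± 0.23 and Sema4g by 1.59 ± 0.18. Sema6a, at -2.23 ± 0.41, and Sema3e, at -1.99 ± 0.26, had a smaller MD effect in neural cells than in ESC (adjusted p = 0.0092 and 0.0027 in edgeR). With the clone label as a replicate block, 5 of the calls were lost: Sema6d at -0.62 (adjusted p = 0.0881 in edgeR), Nrp1 at -0.66 (0.0778), Plxna2 at 0.60 (0.0571), Plxna3 at 0.33 (0.0969) and Plxna4 at 1.05 (0.0520). Nrp2 was gained at -0.996 (adjusted p = 0.0457 in edgeR). Of the 14 calls, 12 were lost without 09 and the same number without 30, with adjusted p in edgeR from 0.0516 to 0.272 and from 0.0579 to 0.384, 6 were lost without A10 (0.0516 to 0.106) and 3 without A04 (0.0601 to 0.156).

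Between stages, most members were higher in neural cells. In MD clones 22 were higher and 5 lower than in ESC, where 81.3% of all genes were called (40.3% higher, 41% lower). In R42A clones 23 were higher and 6 lower, where 78.3% were called (37.9% higher, 40.4% lower). In both genotypes 20 were higher, where 33.2% of all genes were, among them Nrp1 and the whole A class of plexins, and 5 were lower, against 34.8% of all genes: Sema3e, Sema4a, Sema4b, Sema4d and Plxnb3. The median log2 change was 2.21 in MD and 1.54 in R42A, against -0.024 and -0.064 over all genes.

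Sema6d, with 62.9-fold in MD and 97.1-fold in R42A, and Nrp1, with 31.6-fold and 50-fold, had the largest rises common to both genotypes. Their log2 changes were 5.98 ± 0.11 and 6.60 ± 0.12 for Sema6d and 4.98 ± 0.14 and 5.64 ± 0.14 for Nrp1 (SE, n = 2 clones each, adjusted p at most 1.19e-07 in edgeR). Sema3c rose 4.63-fold in MD clones and 35.7-fold in R42A clones. Sema5b rose 17.5-fold in MD clones and 4.29-fold in R42A clones. Sema4a fell in both, by 0.71 on the log2 scale in MD and by 3.40 in R42A. Plxnb3 had 5 counts summed over MD neural clones and 3 over R42A neural clones, and from 81 to 118 and from 164 to 181 counts per clone in ESC of the same clones.

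Nrp2, Plxnd1 and Sema3b were called higher in R42A clones only, with log2 changes of 1.15, 1.67 and 1.12, against 0.21, 0.56 and 0.005 in MD clones. Sema4f and Sema7a were called higher in MD clones only, and Sema3g lower in R42A clones only. The difference between genotypes did not pass for any of these 6 (adjusted p from 0.0527 to 0.163 in edgeR). That of Sema3b, at -1.12, passed in 8 of 12 alternatives, among them both DESeq2 settings, no filter and chromosome-wise scaling, and that of Nrp2 in 6 of 12, the replicate block included. For Plxnd1 it passed in 5, for Sema4f in 4, for Sema3g in 2 and for Sema7a in 1. With the clone label as a replicate block Sema4f in MD, at 0.48, was no longer called (adjusted p = 0.0588 in edgeR). Without 09 the same held for Sema4a (-0.53, adjusted p = 0.0961 in edgeR), Sema4f and Sema7a in MD, and without 30 for Sema4f and Sema7a, and in R42A Sema4g and Sema6c were lost without 09, 30 or A04.

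**Figure D4:**
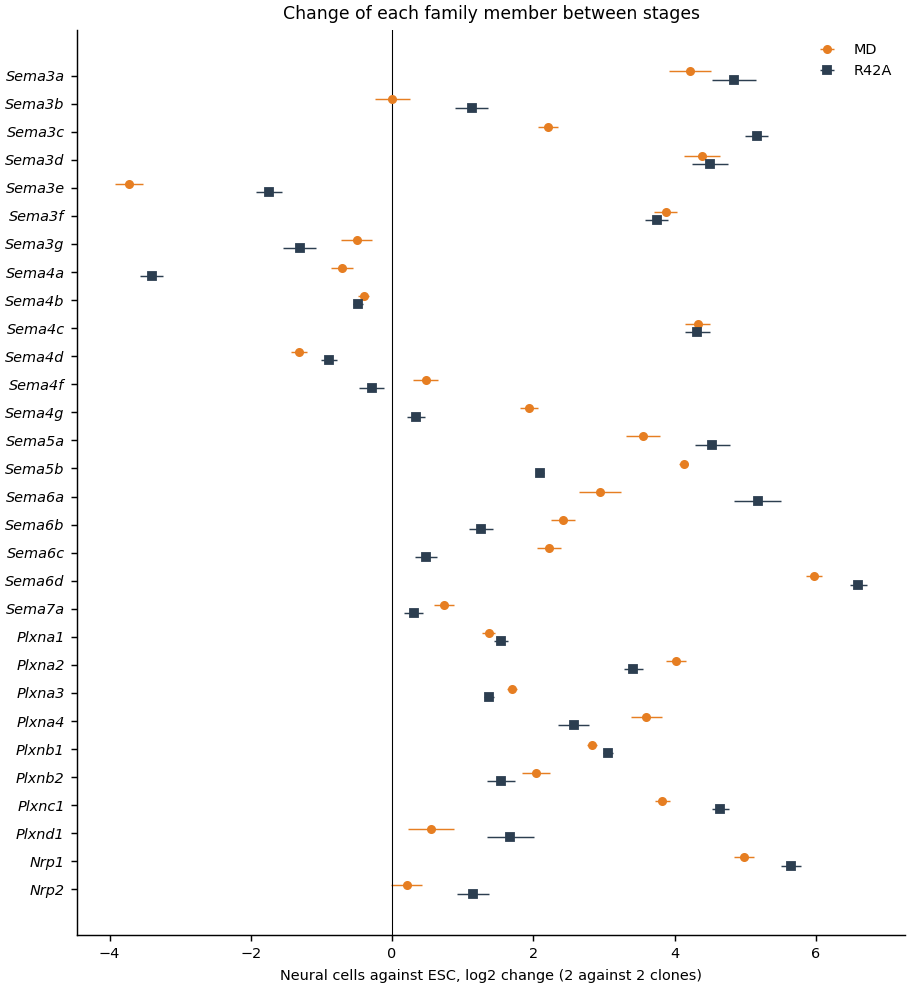
Log2 change of neural cells against ESC for each member but Plxnb3, with circles for MD and squares for R42A (2 clones against 2 in each); lines are standard errors. Most points lie right of 0, and the 2 genotypes stand farthest apart for Sema3c, at 2.21 in MD and 5.16 in R42A.

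Genes that work beside the family were counted from 3 lists. Of 22 effectors of plexin signalling, 3 were higher and 5 lower in MD ESC, and 7 were higher and 4 lower in MD neural cells, where 36.5% of all genes were called in ESC and 33.7% in neural cells. Among those called, the largest changes in ESC were in Gipc1 (-0.88), an adaptor that binds neuropilin and lies on chromosome 8, Cdk5r1 (0.65), Fes (-0.52) and Farp2 (0.51). In neural cells they were Cdk5r1 (2.26), the activator of the kinase Cdk5, Crmp1 (1.07) and Dpysl3 (1.03), of the collapsin response mediators that act in Sema3a signalling, and Mical2 (-1.01). The neuron markers were higher in the same clones, and their part in these changes was not tested.

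Of 10 co-receptors and other receptors tested, 6 were higher and 3 lower in MD ESC, and 4 were higher and 2 lower in MD neural cells. Here and for the VEGF genes below, the share of all genes called was 36.5% in ESC and 33.7% in neural cells. Among those called, the largest log2 changes in ESC were Chl1 1.72, Itga1 1.57, Cntn2 -1.297 and Met 1.06. In neural cells the adhesion molecules Chl1 (2.60), Cntn2 (1.84), L1cam (1.74) and Nrcam (1.13) were all higher, and the 2 genes called lower changed by less. The neuron markers were higher in the same neural clones, and their part in these changes was not tested either. Cntn2 and L1cam, at -0.82, were lower in MD ESC. Of 8 VEGF ligands and receptors, 3 were higher and 3 lower in MD ESC, and 2 were higher and 3 lower in MD neural cells. Kdr, the main VEGF receptor and 1 of the endothelial markers, was lower in MD neural cells at -1.84 and higher in MD ESC at 1.92. Flt1 stood at -1.06 in neural cells and 1.36 in ESC, and Vegfa was higher at 1.20 in MD neural cells and lower at -0.40 in MD ESC. Vegfc was lower at -1.24 in ESC and lies on chromosome 8. These changes are on the log2 scale, and Kdr, Flt1 and Vegfa differed between stages in the test of the difference (-3.61, -2.12 and 1.71, adjusted p from 0.000875 to 0.00536 in edgeR).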

How the data were processed

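RNA-seq tables of 32 libraries were used. The authors deposited expected counts per gene, as 1 table per library with no normalisation. Per the submitters' processing notes, Trim Galore 0.60, STAR 2.7.1a, RSEM 1.3.0, DESeq2 (no version) and the build mm10 were used; their roles, the annotation release and the strand setting are not given in the sources used here. Between 1.46% and 1.7% of values were not whole (tolerance 1e-06). The 92 spike-in entries, with a total count of 0, were left out. Positions and exon lengths came from GENCODE M21 (55180 of 55573 genes matched by identifier), and promoters from RefSeq.

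Expected counts were rounded and summed per clone. Low counts were removed with filterByExpr (minimum count 10) and libraries scaled by TMM. The edgeR 4.0.16 quasi-likelihood test (R 4.3.3, robust setting) gave p-values, which were adjusted by Benjamini-Hochberg over all genes tested and called under 0.05. The ESC test used 8 clone sums with library series as a term. The other tests came from 1 fit of 4 groups on the 8 sums of clone labels 09, 30, A04 and A10. The same clone labels occur in both stages, so the fit with the clone label as a replicate block is paired by line. Log2 changes carry a standard error computed from the F statistic. CPM uses TMM library sizes. The procedure was run on simulated counts drawn with the same spread for all genes and no difference between series. That run does not test it at the spread of these clones. Alternatives used DESeq2 1.42.0, its size factors, limma 3.58.1 voom, no filter, chromosome-wise scaling, single libraries, and each clone left out.

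Clones of a genotype are separate lines, but nothing gives separate cultures for libraries of a clone. The p-values therefore measure the spread between clone sums. In the fit of 4 groups that spread is pooled over ESC and neural sums and is not that of the neural clones alone. For Nrp2, R42A clones A04 and A10 had 18.6 and 32.2 CPM in ESC, against 58.2 and 59.3 CPM in neural cells. Clone values are given for members called with an absolute log2 change of at least 1, or with the largest change of their class in neural cells, and of each gene list at most 4 called genes per comparison. The members, lists and tests were chosen with earlier results of these data known. The marker lists are for ESC, neural progenitors, neurons, smooth muscle with mesenchyme, endothelium, neural crest, endoderm and glia.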

Additional observations from a re-analysis of the deposited data

Results flagged for a closer look

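The effect of MD against R42A differed between neural cells and ESC for 14 members, in the test of that difference in edgeR. The values below are the log2 effect in neural cells less that in ESC of the same 4 clones. It was lower in neural cells for Sema3c (-2.95), Sema6a (-2.23), Sema3e (-1.99), Plxnc1 (-0.82), Nrp1 (-0.66) and Sema6d (-0.63). It was higher in neural cells for Sema4a (2.69), Sema5b (2.03), Sema6c (1.74), Sema4g (1.59), Sema6b (1.16), Plxna4 (1.03), Plxna2 (0.60) and Plxna3 (0.33). Adjusted p in edgeR ran from 0.00015 for Sema5b to 0.0493 for Plxna2. Since all neural libraries are of 1 run, a difference between stages cannot be told apart from one between runs. No clone stood apart from the other 3 of its group by Dixon's criterion at 95% in any of 62 gene and ESC group pairs.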

How the results depend on the processing

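The number of members called in ESC was 15, and 7 without the series term and 6 in the first library series alone, where the share of all genes called was 14.3% and 7.84%, against 36.5%. In neural cells it was 18, and 28 of the 30 members tested when the neural sums were fitted alone, where the share of all genes called was 67.3%, against 33.7%. Leaving out a clone gave 11 to 17 calls in ESC, 5 to 23 in neural cells, 2 to 20 for the difference of the MD effect, 24 to 30 between stages in MD and 27 to 30 in R42A. Without 09 or without 30, neural calls numbered 5 and calls of the difference 2. The share of all genes called was then 6.52% and 6.21% in neural cells, against 33.7%, and 0.314% and 0.46% for the difference, against 22.9%, and the cause was not tested. With the clone label as a replicate block the calls numbered 26 in MD and 29 in R42A between stages and 10 for the difference, and the calls this changed are given with the results; it changed no other call. Same-numbered libraries of different clones had a median correlation of deviations of 0.046, 0.162 and 0.0149 in the 3 series, with a lowest value of -0.368. Libraries of different numbers and clones had medians of -0.0411, -0.0423 and -0.0149. In the second series the same-numbered median lay above their highest value of 0.128. The main tests use sums per clone and not the library numbers. With single libraries as replicates, 22 members were called in ESC both with and without a replicate block on these numbers.

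Every change of sign concerned a value that passed the test on neither side. In ESC, Sema4b was -0.000 with no filter, -0.007 without the series term, -0.038 in the second series alone and -0.042 to 0.070 when a clone was left out. There Sema4c was -0.004 in the first series alone, and Plxna2 was 0.073 in the second series alone and -0.246 to 0.075 when a clone was left out. In neural cells, Sema4c was 0.029 with each chromosome scaled separately and -0.043 to 0.021 when a clone was left out, and Plxnb3 was -0.516 to 4.736. Between stages, Sema3b in MD was -0.049 with DESeq2 and with its size factors, -0.003 with no filter, -0.015 with each chromosome scaled separately and -0.109 to 0.134 when a clone was left out, and Sema4f in R42A was -0.553 to 0.018. For the difference of the MD effect, leaving out a clone gave -0.541 to 0.200 for Sema3d, -0.142 to 0.356 for Sema3f, -0.004 to 0.149 for Sema4b and -0.253 to 0.229 for Sema4c, which was -0.028 with DESeq2 and with its size factors. On raw library totals, 46 of 124 group levels moved by more than 1 SD.

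Each neural group has 2 clones and 1 estimate of spread is shared with ESC. Plxnb3 in neural cells, with at most 4 counts per clone, is at the limit of depth. Sema3g in neural cells rests on 25 to 62 counts per clone, and Sema6d and Sema3a in ESC rest on 12 to 186.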
